A study of Mus musculus with 32 samples.

Results

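The 10 transcription factors Msx3, Olig3, Pax3, Pax6, Dbx1, Dbx2, Irx3, Nkx6-1, Olig2 and Nkx2-2 mark progenitor domains of the embryonic neural tube, in this order from dorsal to ventral. They were taken by gene symbol from the 20612 genes listed in any library, and all 10 passed the filter on low counts. Msx3, Olig3 and Pax3 were counted as the 3 dorsal factors, Pax6, Dbx1, Dbx2 and Irx3 as the 4 intermediate factors, and Nkx6-1, Olig2 and Nkx2-2 as the 3 ventral factors.

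RNA was sequenced from the mouse line J1 (embryonic stem cells, ESCs, strain 129S4/SvJae) and from cultures made from it. All cultures were exposed either to the solvent DMSO or to 100 nM of 1 of 3 industrial phenols, the bisphenols A, F and S (BPA, BPF and BPS). For each of these 4 treatments, 1 library was made at each of 8 stages. The stages were ESCs at day 0, embryoid bodies (EBs, aggregates in which several germ layers form) at days 4, 6, 9, 12 and 20, EBs of day 8 that had spent 4 days in retinoic acid (RA EBs), and monolayer neural progenitor cultures of day 10 (NPCs). EBs of days 6 to 20 are called the global branch and RA EBs and NPCs the neural branch. All libraries came from 1 cell line, and the labels name no engineered allele in any group. With no repeated library, the 4 libraries of a stage, 1 per treatment, served as its replicates. In stage comparisons, the spread behind each p-value therefore includes differences between the treatments. In comparisons of bisphenols with DMSO at a stage, it is the spread among the different bisphenols. In comparisons over several stages, it includes differences of a treatment's effect between stages. Part of each spread may be technical.

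In the developing spinal cord, Sonic hedgehog from the notochord and floor plate acts on ventral progenitors, while BMP and Wnt signals from the roof plate act dorsally. Hedgehog signalling induces Nkx6-1, Olig2 and Nkx2-2 and represses Pax3, Dbx1 and Dbx2, and retinoic acid promotes Pax6, Irx3, Dbx1 and Olig2. Neighbouring factors repress each other, as Pax6 and Nkx2-2, or Irx3 and Olig2, do at their shared borders. Several of the genes also act elsewhere: Pax3 in somites and neural crest, Pax6 in forebrain, eye and pancreas, and Nkx2-2 and Nkx6-1 in pancreatic endocrine cells.

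RefSeq promoters (GRCm38.p6, 250 bases before to 50 after the start) were matched for 9 of the 10 factors, with 10 entries in all because Pax6 had a pair of starts. Shown are the promoters of Msx3 and Olig3, which rose and fell together, of Pax6 (the upstream start), Dbx1 and Olig2, the 3 factors whose difference between bisphenol and DMSO libraries was not the same in the branches, and of Nkx2-2, which stayed near 0 after retinoic acid. Capitals mark 3 motifs on either strand: the CCAAT box, the TATA box (TATAAA) and the core of a SOX site (ACAAAG).
Msx3, chr7:140049039-140049338, minus strand: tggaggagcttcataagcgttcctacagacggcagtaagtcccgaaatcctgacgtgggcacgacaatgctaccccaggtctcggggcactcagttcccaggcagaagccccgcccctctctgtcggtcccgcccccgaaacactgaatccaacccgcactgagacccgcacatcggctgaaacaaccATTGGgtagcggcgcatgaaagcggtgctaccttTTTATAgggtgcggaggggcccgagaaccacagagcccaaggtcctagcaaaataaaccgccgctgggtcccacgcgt
Olig3, chr10:19356289-19356588, plus strand: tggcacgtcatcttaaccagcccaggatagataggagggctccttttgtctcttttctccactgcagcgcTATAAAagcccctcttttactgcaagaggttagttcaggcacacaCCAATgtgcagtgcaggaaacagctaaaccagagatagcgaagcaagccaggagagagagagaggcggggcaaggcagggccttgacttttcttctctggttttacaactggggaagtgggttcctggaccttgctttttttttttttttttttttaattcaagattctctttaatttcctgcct
Pax6, chr2:105668646-105668945, plus strand: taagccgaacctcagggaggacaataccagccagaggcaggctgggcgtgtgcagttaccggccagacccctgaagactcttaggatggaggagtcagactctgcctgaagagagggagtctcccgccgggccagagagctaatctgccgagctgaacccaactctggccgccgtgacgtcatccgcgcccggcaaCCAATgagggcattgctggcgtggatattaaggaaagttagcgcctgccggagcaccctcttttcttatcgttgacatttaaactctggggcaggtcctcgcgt
Dbx1, chr7:49636786-49637085, minus strand: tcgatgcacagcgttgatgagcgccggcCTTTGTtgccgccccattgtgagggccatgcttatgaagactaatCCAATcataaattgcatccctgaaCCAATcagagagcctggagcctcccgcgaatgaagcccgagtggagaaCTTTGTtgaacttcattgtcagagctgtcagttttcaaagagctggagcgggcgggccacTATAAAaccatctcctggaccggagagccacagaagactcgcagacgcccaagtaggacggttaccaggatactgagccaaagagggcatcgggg
Olig2, chr16:91225300-91225599, plus strand: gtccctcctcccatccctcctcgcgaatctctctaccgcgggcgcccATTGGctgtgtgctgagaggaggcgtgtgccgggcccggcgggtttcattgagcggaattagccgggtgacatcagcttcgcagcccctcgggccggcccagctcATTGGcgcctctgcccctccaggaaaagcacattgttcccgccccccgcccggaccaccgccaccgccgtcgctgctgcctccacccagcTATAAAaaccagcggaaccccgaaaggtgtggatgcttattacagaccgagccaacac
Nkx2-2, chr2:147186353-147186652, minus strand: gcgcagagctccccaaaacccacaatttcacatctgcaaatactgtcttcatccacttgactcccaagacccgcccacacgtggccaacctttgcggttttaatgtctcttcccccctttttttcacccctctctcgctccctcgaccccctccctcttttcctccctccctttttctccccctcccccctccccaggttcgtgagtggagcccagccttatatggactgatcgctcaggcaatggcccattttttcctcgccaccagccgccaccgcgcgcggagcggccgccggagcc
The letters TATAAA lay 28 bases before the start in Msx3, 45 in Dbx1, 8 in Olig2 and 180 in Olig3, and were in 13.6% of 32851 promoters of this length. CCAAT was in 37.4% of all promoters and in the printed promoters of Msx3, Olig3, Pax6, Dbx1 and Olig2. ACAAAG was in 18.7% of all promoters, and Dbx1 held it 2 times. No member's window held GACCACCCA (a GLI site, in 0.253% of promoters), AGGTCA (a half-site of nuclear receptors, in 16.3%) or CAGCTG (an E-box, in 16.3%), on either strand. The windows of Irx3, Nkx6-1 and Nkx2-2 held none of the 6 motifs. The Nkx2-2 window is that of an internal start, inside the span of the gene given below. No matches printed here overlap, and a match is a string of letters only.

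The libraries held between 9574833 and 11070149 expected counts each. The 8 pluripotency genes summed to between 2076 and 2151 FPKM (fragments per kilobase of transcript, scaled to library size) in ESCs and to between 8.11 and 12.9 in RA EBs. All 12 neural progenitor markers had a mean of 1 FPKM or more at every stage from EB day 6. The NPC libraries also carried the most neuronal RNA, with the 12 neuron markers summing to between 3193 and 3728 FPKM against 500 to 553 in RA EBs, beside the progenitor markers. In such bulk samples, fewer cells of a type and less RNA per cell cannot be told apart.

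The dorsal factors were absent or near 0 in ESCs and EBs of day 4, and each had its highest stage mean in RA EBs. Msx3 and Olig3 were low in the global branch, and Pax3 was not. Msx3, a homeobox repressor of the dorsal tube (Entrez 17703, GRCm38 chromosome 7, 140046157 to 140049088), was listed at 0 in all 4 libraries of EB day 4. Its level in FPKM at EB day 9 was 3.95 with DMSO, 2.70 with BPA, 2.07 with BPF and 1.31 with BPS. In RA EBs it was 45.1, 34.2, 30.8 and 29.6 in the same order, and in NPCs 10.1, 11.4, 7.77 and 7.78. All 4 RA EB libraries lay above the 4 NPC libraries, and these above every library of the global branch. Msx3 rose at EB day 6 (at least 29.1-fold over EB day 4, against a floor of 3 counts over the group, edgeR quasi-likelihood adjusted p = 5.58e-07), rose again at day 9 (log2 change 1.33 ± 0.32, SE, adjusted p = 0.00102) and fell by 2.10 ± 0.35 from day 12 to day 20 (adjusted p = 7.13e-06). Its fall from ESCs to EB day 4, at least 3.17-fold (adjusted p = 0.024), rested on 1 to 4 counts per ESC library and missed the threshold without the BPA libraries (0.0879) or without the BPF libraries (0.0605). The floors used here cover counting error only.

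Olig3, a basic helix-loop-helix factor of the most dorsal progenitors (Entrez 94222, chromosome 10, 19356539 to 19358604), was listed at 0 in every ESC and EB day 4 library. Its values at EB day 6 were 0.18, 0.22, 0.22 and 0.44 FPKM with DMSO, BPA, BPF and BPS, and at day 9 they were 2.70, 1.64, 1.73 and 1.35. In RA EBs they reached 13.8, 17.2, 11.5 and 13.7, and in NPCs 5.31, 4.92, 5.17 and 4.65. RA EBs lay above NPCs, and NPCs above every library of the global branch, as for Msx3. Olig3 rose at least 7.34-fold from EB day 4 to day 6 (adjusted p = 9.44e-06) and by 2.72 ± 0.29 on the log2 scale from day 6 to day 9 (adjusted p = 3.78e-08), and it fell by 2.76 ± 0.27 from day 12 to day 20 (adjusted p = 3.48e-09). Over the 32 libraries, Olig3 was the gene most like Msx3 (Pearson r of log2(FPKM + 1) 0.980), and Msx3 the gene most like Olig3.

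Pax3, a paired-box factor of dorsal progenitors that also marks dermomyotome and neural crest (Entrez 18505, chromosome 1, 78101267 to 78197136), differed from the other dorsal factors in being well expressed in both branches. With DMSO, BPA, BPF and BPS it measured 6.20, 4.83, 3.36 and 4.62 FPKM at EB day 6, 12.4, 7.46, 7.94 and 10.4 at EB day 12, 16.1, 13.8, 13.3 and 14.2 in RA EBs, and 9.42, 16.4, 10.3 and 12.4 in NPCs. The ranges of EB day 12, RA EBs and NPCs came close to or overlapped one another. Pax3 was listed at 0 in 3 of the 4 libraries of EB day 4 and at 0.06 FPKM in the other, and was higher at day 6 (adjusted p = 2.07e-12). It fell by 1.84 ± 0.26 from day 12 to day 20 (adjusted p = 2.57e-07). Of the 12 somite genes 9 were tested, and in NPCs 1 was higher and 7 were lower than in EBs of days 9 and 12 (median log2 difference -3.17). The list summed to between 36.3 and 40.8 FPKM at EB day 12 and to between 41.5 and 54.5 in NPCs, most of it Uncx (25.2 ± 5.34 and 44.9 ± 6.01, SD, n = 4). Of the 9 neural crest genes 5 were higher and 3 lower in NPCs than in these EBs. They summed to between 21.7 and 38.6 FPKM at EB day 12 and to between 116 and 125 in NPCs. In NPCs Sox10 was at 0.51 ± 0.27 FPKM and Foxd3 at 6.35 ± 0.68 (SD, n = 4), so other genes of the list held most of that sum. The part of somite and crest cells in the Pax3 values was not tested.

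Of the 4 intermediate factors, Dbx1, Irx3 and Pax6 had the highest stage means of the 10 in RA EBs and in NPCs, and Dbx2 one of the lowest. Pax6, a paired-box factor of intermediate and ventral progenitors (Entrez 18508, chromosome 2, 105668896 to 105698410), measured 0.40 to 0.75 FPKM in ESCs. In the order DMSO, BPA, BPF and BPS it stood at 4.09, 1.35, 1.20 and 1.53 FPKM at EB day 6, 14.4, 6.75, 7.41 and 6.25 at day 12, and 49.2, 47.9, 50.9 and 52.1 in RA EBs. The DMSO library was above the other 3 at EB days 6, 9, 12 and 20, and the 4 RA EB libraries lay close together (50.04 ± 1.87, SD, n = 4). Pax6 rose by 2.17 ± 0.51 to EB day 6 (adjusted p = 0.000628), by 1.34 ± 0.33 from day 9 to day 12 (adjusted p = 0.00165), and by 6.73 ± 0.43 from EB day 4 to RA EBs (adjusted p = 1.39e-14). The 9 forebrain and midbrain genes summed to between 129 and 212 FPKM at EB day 12 and to between 6.13 and 9.45 in RA EBs, and their part in the Pax6 values of EBs was not tested.

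Dbx1, a homeobox factor of the V0 interneuron progenitors (Entrez 13172, chromosome 7, 49631499 to 49636835), had the highest level of the 10 factors in both neural stages. At EB day 12 it measured 110 FPKM with DMSO against 48.8, 40.5 and 53.3 with BPA, BPF and BPS, and at EB day 20 it measured 4.99, 5.34, 4.59 and 5.09. In RA EBs the values were 116, 113, 122 and 132, and in NPCs 46.1, 57.0, 63.6 and 69.8. The 4 libraries of EB day 12 had the largest SD of any stage for Dbx1 (63.2 ± 31.8 FPKM, SD, n = 4), set by the DMSO library. Dbx1 rose by 6.13 ± 0.82, 1.64 ± 0.33 and 2.06 ± 0.28 on the log2 scale at EB days 6, 9 and 12, each against the stage before (adjusted p = 2.78e-07, 0.000113 and 8.47e-07), and fell by 3.77 ± 0.32 at day 20 (adjusted p = 1.24e-11).

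Dbx2, the paralog of Dbx1 whose domain is wider and includes neighbouring interneuron progenitors (Entrez 223843, chromosome 15, 95623563 to 95654771), did not follow it. From EB day 6 to day 12 it measured no more than 0.28 FPKM in any library, while Dbx1 reached its peak of the global branch. At EB day 20 it was at 4.83, 4.38, 2.58 and 4.15 FPKM with DMSO, BPA, BPF and BPS, a rise of 4.78 ± 0.37 over day 12 (adjusted p = 1.44e-12), as Dbx1 fell. In RA EBs it measured 2.26 to 2.87 FPKM and in NPCs 2.62, 3.38, 4.02 and 5.15. Over the 32 libraries the correlation of Dbx1 and Dbx2 was 0.407 (Pearson r, a description). The EB day 20 libraries were also those with astrocyte RNA, the 7 astrocyte genes summing to between 472 and 493 FPKM against 25.4 to 28.9 at day 12, with Gfap at 316 ± 13.6 FPKM (SD, n = 4). Whether these cells carry the Dbx2 of day 20 was not tested.

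Irx3, an Iroquois homeobox factor that bounds the motor neuron domain from the dorsal side (Entrez 16373, chromosome 8, 91798511 to 91801654), was the first of the 10 to appear. It was the only factor at 1 FPKM or more in all 4 libraries of EB day 4, at 1.87, 1.93, 1.78 and 1.72 with DMSO, BPA, BPF and BPS, against 0.63, 0.87, 0.87 and 1.23 in ESCs. This rise (1.03 ± 0.25, adjusted p = 0.000736) fell under the fold limit without the DMSO libraries (0.88) or the BPA libraries (0.96). At EB day 6 it measured 17.4 to 22.6 FPKM (log2 change 3.36 ± 0.18, adjusted p = 9.71e-16), at day 12 it measured 54.7, 38.4, 36.3 and 41.6, and in RA EBs 59.0, 51.2, 53.8 and 59.0. It fell by 2.13 ± 0.14 from EB day 12 to day 20 (adjusted p = 5.72e-14). Irx5, a neighbouring Iroquois gene, was the gene most like Irx3 over the 32 libraries (Pearson r 0.983).

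The 3 ventral factors each followed a course of their own. Nkx6-1, a homeobox factor of the motor neuron domain and its neighbours (Entrez 18096, chromosome 5, 101659184 to 101664711), was already at 11.6, 13.1, 8.26 and 12.2 FPKM at EB day 6 with DMSO, BPA, BPF and BPS. It peaked at EB day 9 at 43.4, 73.4, 58.9 and 51.1, and in RA EBs it measured 10.9, 12.7, 16.2 and 17.1. Every EB day 9 library was above every library of the neural branch, and the DMSO library was the lowest of EB day 9. Nkx6-1 rose by 7.51 ± 0.49 at EB day 6 (adjusted p = 1.13e-13) and by 2.26 ± 0.21 at day 9 (adjusted p = 3.93e-10), and fell by 2.60 ± 0.22 at day 20 (adjusted p = 1.32e-11).

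Olig2, which specifies motor neuron progenitors and later oligodendrocytes (Entrez 50913, chromosome 16, 91225550 to 91228677), was at 0.07 FPKM or less in every library up to EB day 6. It measured 6.85, 2.32, 2.03 and 1.33 FPKM at EB day 9 and 19.8, 6.29, 6.53 and 7.04 at day 12, with DMSO the highest at both. Its 4 values in RA EBs were 10.7, 9.75, 13.5 and 14.3, and in NPCs 0.12, 0.08, 0.08 and 0.24. From RA EBs to NPCs it fell by 6.40 ± 0.55 on the log2 scale (adjusted p = 1.28e-11), the largest fall of the 10 factors between successive stages. Olig2 rose by 6.17 ± 0.73 at EB day 9 (adjusted p = 3.68e-08) and by 1.63 ± 0.36 at day 12 (adjusted p = 0.000595). At EB day 20 it measured 5.79 to 8.15 FPKM (log2 change -0.60 ± 0.35, adjusted p = 0.128), a step at which 6 of 10 oligodendrocyte genes rose and 1 fell. Among them Pdgfra, a receptor of oligodendrocyte precursors, was at 23.2 ± 1.97 FPKM and Sox10, a defining factor of the lineage, at 0.205 ± 0.091 (SD, n = 4) at day 20. The part of that lineage in the Olig2 values was not tested.

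Nkx2-2, a homeobox factor of the most ventral neuronal progenitors (Entrez 18088, chromosome 2, 147176485 to 147195434), was the only one of the 10 that never reached 1 FPKM in the neural branch. In RA EBs it measured 0.29, 0, 0.18 and 0.18 FPKM with DMSO, BPA, BPF and BPS, and in NPCs 0.30, 0.20, 0.22 and 0.07. In the global branch it measured 0.95, 2.01, 3.72 and 4.69 at EB day 6, 15.4, 13.1, 10.7 and 8.94 at day 12 and 17.8, 17.7, 11.4 and 9.29 at day 20. The order of the treatments at day 6, with DMSO lowest and BPS highest, was thus the reverse of that at days 12 and 20. It rose by 4.10 ± 0.50 at EB day 6 (adjusted p = 4.57e-08) and by 1.24 ± 0.29 at day 12 (adjusted p = 0.00118), and its change at day 20, when 6 other factors fell, did not pass the test (0.11 ± 0.28, adjusted p = 0.754). The 9 pancreatic endocrine genes summed to between 2.59 and 4.66 FPKM at EB day 6, 39.8 and 76.8 at day 9, 24.1 and 35.3 at day 12 and 37.5 and 58.1 at day 20. Most of this was Sst, a peptide gene that neurons also express (38.0 ± 8.92 FPKM at day 20, SD, n = 4), while Ins1 and Ins2 were at 0 at these 4 stages. The part of such cells in the Nkx2-2 values was not tested.

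**Figure D1:**
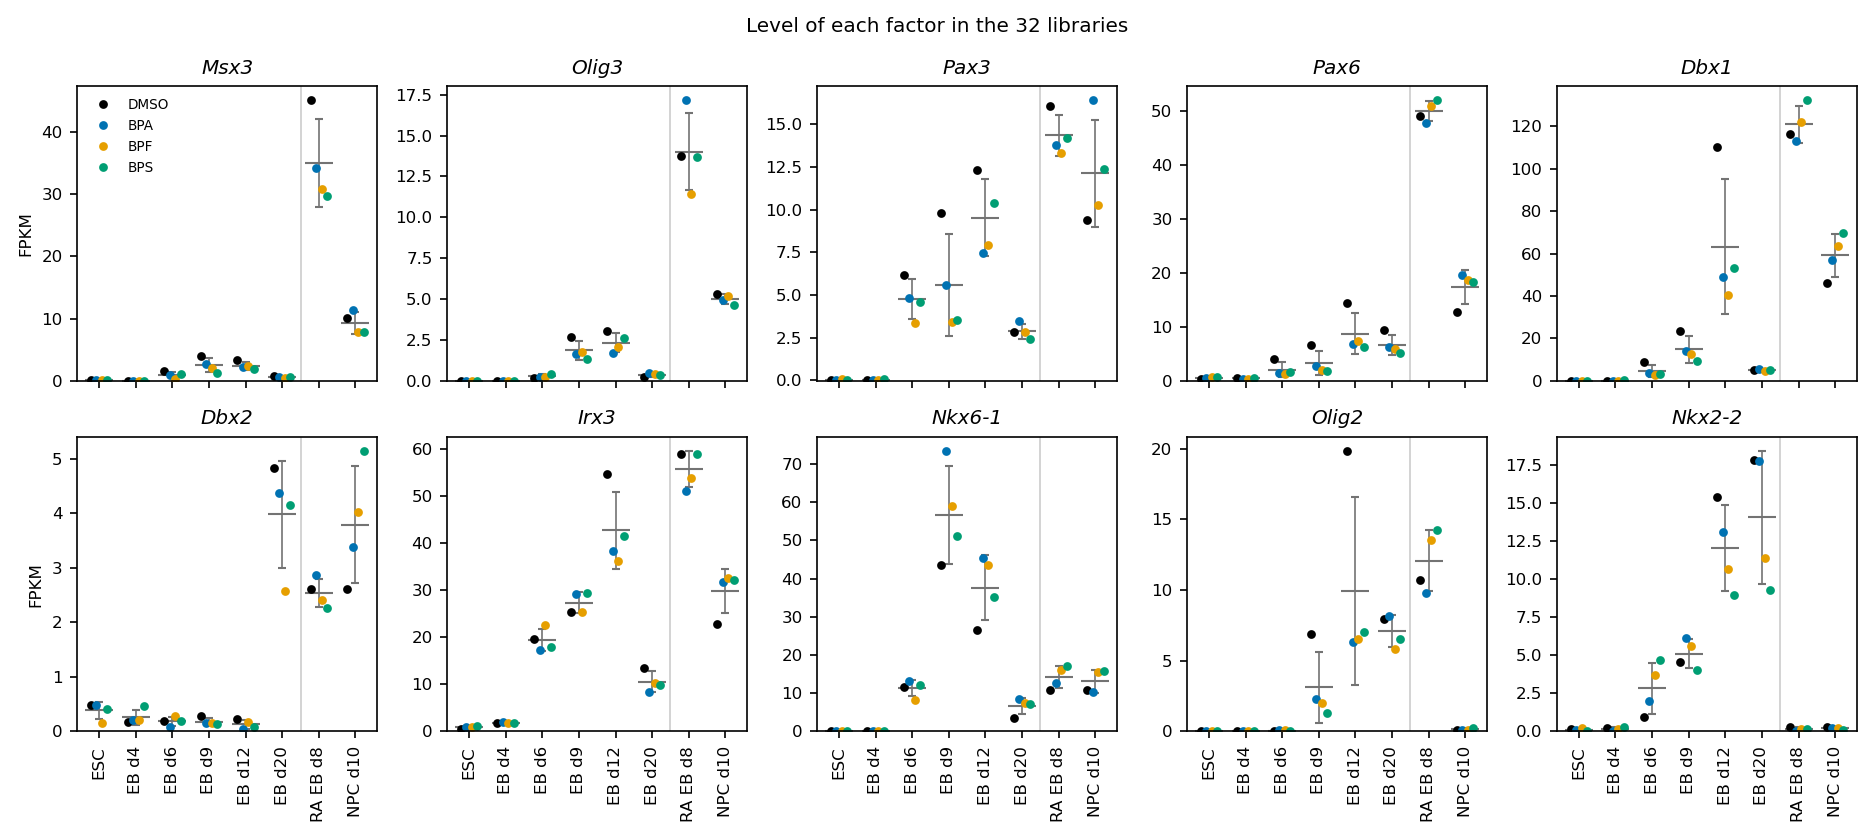
Level of each factor in FPKM (vertical axis, a scale of its own per gene) in the 32 libraries by stage, colored by treatment; bars are the mean and SD of the 4 libraries of a stage, and the grey line parts the RA EBs and NPCs from the rest. Msx3, Olig3, Pax6 and Dbx1 are highest in RA EBs, Nkx6-1 at EB day 9 and Nkx2-2 at EB days 12 and 20.

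Counted together, 8 of the 10 factors rose from EB day 4 to day 6, all but Dbx2 and Olig2, where 10.7% of all 15632 genes tested rose at an adjusted p under 0.05 and an absolute log2 change of 1 or more. On the log2(FPKM + 1) scale with limma 5 of these 8 passed, the changes of Msx3 (0.93), Olig3 (0.33) and Pax6 (0.997) being under 1. From day 6 to day 9, 5 rose (10.9% of all genes) and none fell. From day 9 to day 12, Pax6, Dbx1, Olig2 and Nkx2-2 rose (7.53% of all genes). From day 12 to day 20, 6 fell (8.82% of all genes) and Dbx2 alone rose (17.6%). The median log2 change of the 10 at this last step was -1.97, against -0.003 over all genes. From ESCs to EB day 4, Irx3 rose and Msx3 fell, where 14.4% of all genes rose and 13.5% fell. From EB day 4 to RA EBs, 9 factors rose (19.0% of all genes) and Nkx2-2 did not (-0.27 ± 0.82, adjusted p = 0.775). From RA EBs to NPCs, Msx3 (-1.84 ± 0.23), Pax6 (-1.46 ± 0.29), Olig3 (-1.41 ± 0.19) and Olig2 fell, where 17.4% of all genes did. Nkx6-1 (-0.05 ± 0.21) and Pax3 (-0.17 ± 0.23) did not pass the test. Dbx1 and Irx3 were not called, but their NPC ranges (46.1 to 69.8 and 22.9 to 32.6 FPKM) lay below those of RA EBs (113 to 132 and 51.2 to 59.0). Dbx1 was called with limma on log2(FPKM + 1) (-1.03) and log2(FPKM + 0.1) (-1.05). It was also called without the BPF or the BPS libraries (-1.01 each).

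The first stage with all 4 libraries at 1 FPKM or more was EB day 4 for Irx3, day 6 for Pax3, Pax6, Dbx1 and Nkx6-1, day 9 for Msx3, Olig3, Olig2 and Nkx2-2 and day 20 for Dbx2. This order did not run from dorsal to ventral: each of the days 6 and 9 brought dorsal as well as ventral factors above that level. Summed over the 10, the stage means gave 46.3 FPKM at EB day 6, 189 at day 12, 57.9 at day 20, 319 in RA EBs and 150 in NPCs.

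The make-up of this sum differed between the branches. The ventral factors held 53.9 ± 7.50% of it at EB day 9 (SD, n = 4) and 48.0 ± 4.42% at day 20, and 8.27 ± 1.40% in RA EBs and 8.96 ± 1.48% in NPCs. No library of the global branch was under 23.5% and none of the neural branch over 9.97%. A share also depends on the level of the other factors, so a lower share need not be a lower level. Nkx6-1 and Olig2 had means of 14.2 and 12.1 FPKM in RA EBs, against 11.3 and 0.035 at EB day 6. Nkx2-2 went the other way, at 0.16 against 2.84. At EB day 9, Nkx6-1 alone had a mean of 56.7 FPKM. The intermediate factors held 71.8 ± 1.53% in RA EBs, and the dorsal factors 19.9 ± 2.92% there against 8.12 ± 3.23% at EB day 9. With CPM, counts scaled to library size but not divided by length, the ventral share was 17.6% or more in each global library and 8.03% or less in each neural one.

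**Figure D2:**
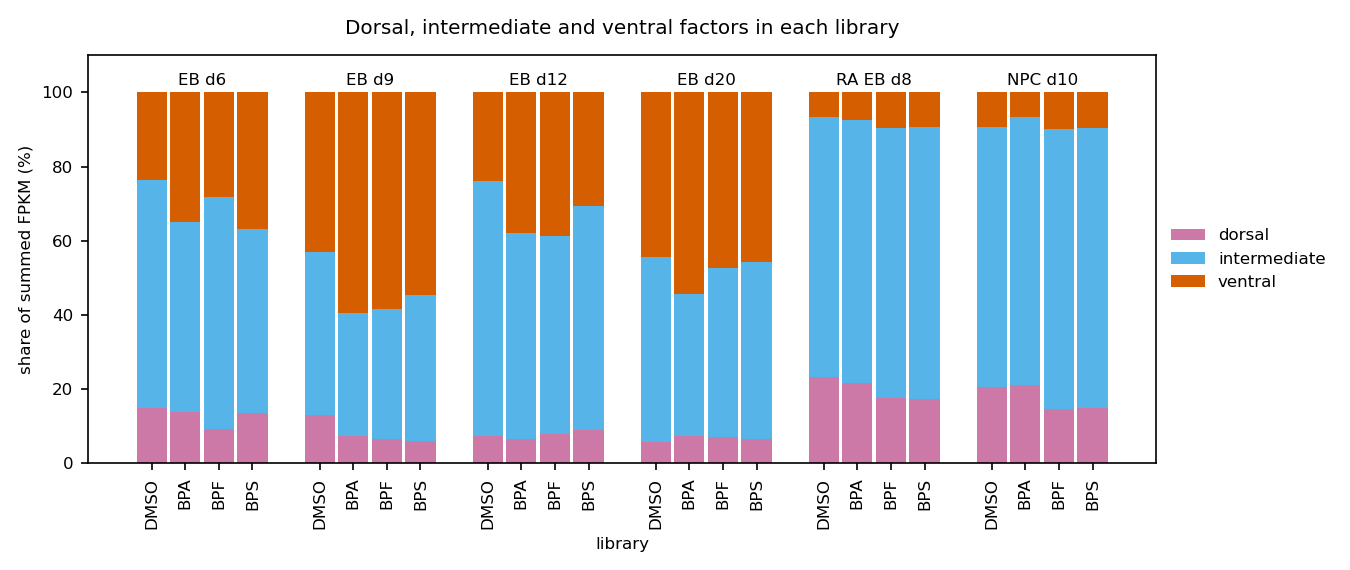
Share of the summed FPKM of the 10 factors (vertical axis, %) held by dorsal, intermediate and ventral factors in each of the 24 libraries from EB day 6 on, grouped by stage. The ventral share is 23.5% or more in each global library and 9.97% or less in each neural one.

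The branches were compared at similar ages, RA EBs of day 8 with EBs of days 6 and 9, and NPCs of day 10 with EBs of days 9 and 12. The comparisons share the EB day 9 libraries. In RA EBs, 8 factors were higher and Nkx2-2 was lower, where 8.55% of all genes were higher and 10.4% lower. The median log2 difference of the 10 was 3.77, against -0.01 over all genes. Msx3 was higher by 4.46 ± 0.21 (adjusted p = 7.06e-16), Olig3 by 4.28 ± 0.18 (1.31e-15), Pax6 by 4.23 ± 0.26 (2.48e-14) and Dbx1 by 3.86 ± 0.24 (1.97e-14). Pax3 (1.44 ± 0.20) and Irx3 (1.25 ± 0.11) differed less and Olig2 was higher by 5.03 ± 0.41 (1.35e-11), a value that averages EB day 9 with EB day 6, where Olig2 had 0 to 2 counts per library. Nkx2-2 was lower by 4.73 on the log2 scale, at 0 to 0.29 FPKM in RA EBs against 0.95 to 6.17 at EB days 6 and 9. The difference of Nkx6-1, -0.85 ± 0.18, was under the fold limit. The 2 factors that were not called higher in RA EBs were thus ventral ones.

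In NPCs, Msx3 and Olig3 were higher than in EBs of days 9 and 12, and all 3 ventral factors were lower. Msx3 was higher by 2.001 ± 0.212 (adjusted p = 2.05e-09), Olig3 by 1.36 ± 0.17, Pax6 by 1.78 ± 0.26 and Dbx2 by 4.67 ± 0.28 (1.21e-15). Nkx6-1 was lower (-1.71 ± 0.19, 1.78e-09), as were Olig2 (-5.26 ± 0.55) and Nkx2-2 (-5.41 ± 0.44, 2.61e-12). With Dbx1, 5 factors were higher and 3 lower, where 16.4% and 22.6% of all genes were. Dbx1 (1.05 ± 0.23) fell under the fold limit without the BPA, BPF or BPS libraries (0.84 to 0.99), and its ranges overlapped. Pax3 (0.82 ± 0.20) was under that limit and past it without the DMSO libraries (1.22).

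**Figure D3:**
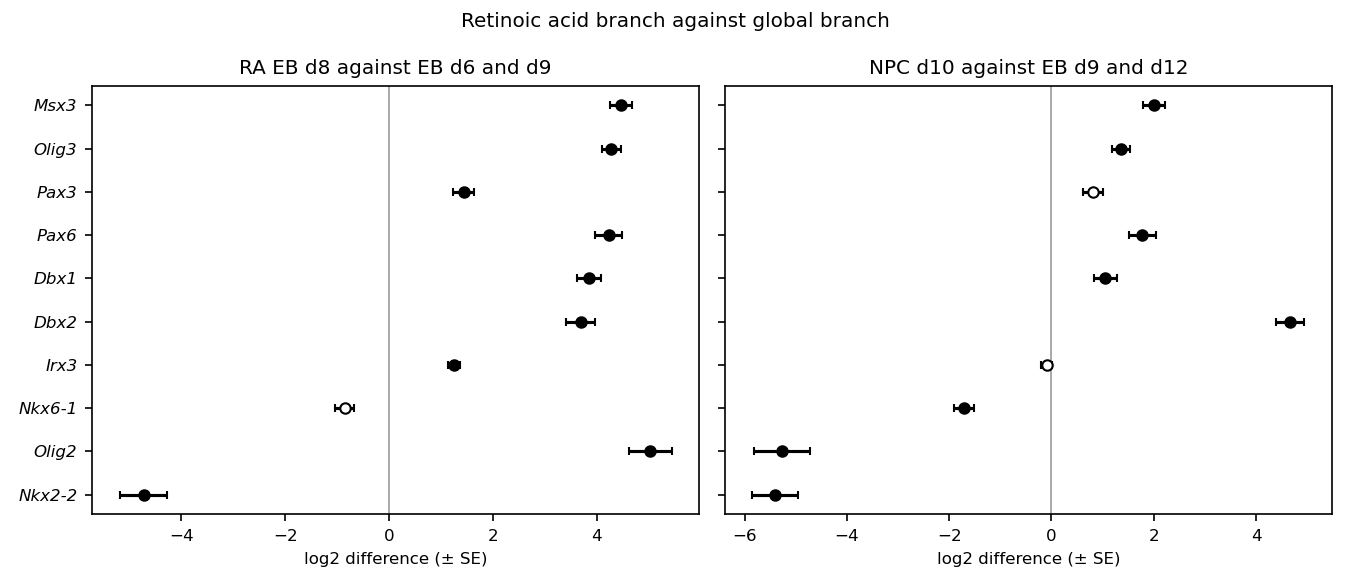
Log2 difference (horizontal axis, ± SE) of RA EBs from EBs of days 6 and 9 (left) and of NPCs from EBs of days 9 and 12 (right) for the factors in order from dorsal to ventral; filled points passed an adjusted p of 0.05 and an absolute log2 change of 1. Nkx2-2 is far to the left in both panels, and Olig2 changes side between them, from 5.03 to -5.26.

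Beside these differences, genes of the signals that pattern the tube also differed. Shh, the hedgehog ligand, was at 54.5 ± 18.1 FPKM at EB day 9 (SD, n = 4), 2.003 ± 0.671 in RA EBs and 1.10 ± 0.32 in NPCs (log2 difference -3.95 ± 0.38 for RA EBs, adjusted p = 3.21e-10). Of 14 hedgehog pathway genes 4 were higher and 3 lower in RA EBs, and 8 were lower and none higher in NPCs, among them the target and effector Gli1 (-5.23 ± 0.28) and the target Hhip (-2.67 ± 0.21). Gas1 and Boc, which help hedgehog bind, were higher in RA EBs by 2.26 ± 0.16 and 1.65 ± 0.13. Of 18 genes of BMP and Wnt signalling 11 were lower and none higher in RA EBs, and 14 were lower in NPCs. Of 12 retinoid genes 9 were higher and 2 lower in RA EBs. Each of these lists mixes genes that raise and genes that lower a signal, so the counts do not give its direction. The part of any of these pathways in the values of the 10 factors was not tested.

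Of 24 further domain factors, 13 were higher and 7 lower in RA EBs than in EBs of days 6 and 9. Prdm13 and Ptf1a, factors of dorsal inhibitory progenitors, were among the higher, at 10.9 ± 0.501 and 4.39 ± 1.25 FPKM in RA EBs (SD, n = 4) and at or near 0 in EBs of both days. In NPCs, 6 of the 24 were higher and 8 lower, with the roof plate factor Lmx1a (-8.29 ± 0.40) and the floor plate factor Foxa2 (-5.28 ± 0.35) among the lower. Of 26 factors of postmitotic classes 16 were higher in NPCs and 5 lower, with the dorsal interneuron factors Pax2 (7.78 ± 0.21) and Lbx1, at 53.2 ± 0.852 FPKM in NPCs and 0.468 ± 0.235 at EB day 12 (SD, n = 4), among the higher.

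Likeness over the 32 libraries was measured as Pearson's r of log2(FPKM + 1) among 11438 genes with a highest stage mean of 5 FPKM or more. All values share the 8 stages, so they describe a common course and no more. The gene most like Dbx1 was Spsb4 (0.971), like Pax6 Tshz1 (0.946), like Pax3 Arl2bp (0.978), like Nkx6-1 Eya2 (0.970), like Olig2 Efcc1 (0.947), like Dbx2 Anks1b (0.927) and like Nkx2-2 Tmem43 (0.936). Among the factors themselves r ran from -0.231 for Msx3 with Nkx2-2 to 0.980 for Msx3 with Olig3. Pax3 followed Irx3 (0.962) and Dbx1 (0.958) more closely than Msx3 (0.831).

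The bisphenol libraries were compared with the DMSO library stage by stage, the 3 bisphenols as 1 class. Only 1 DMSO library stands behind each value, and its spread is assumed to be that of the other libraries. The DMSO library can therefore not be told apart from the treatment at any single stage. Pax6 and Dbx1 were lower with bisphenols at EB days 6, 9 and 12, Olig2 at days 9 and 12 and Pax3 at day 9. None of the 10 passed edgeR's quasi-likelihood test in ESCs, EBs of day 4 or RA EBs, where 0.0%, 0.563% and 2.34% of all genes did. At an unadjusted p under 0.05 there were 0, 0 and 2 factors, and 1.64%, 8.60% and 16.5% of all genes, and DESeq2 and limma called 0 at each of these stages. In NPCs Pax6 and Irx3 were higher.

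At EB day 6, Pax6 was at 1.20 to 1.53 FPKM with bisphenols against 4.09 with DMSO (log2 difference -1.60 ± 0.18, adjusted p = 8.17e-06). Dbx1 was at 2.66 to 3.53 against 8.98 (-1.56 ± 0.24, 0.000304). These 2 of 10 were the factors called there, where 1.0% of all genes were lower. Nkx2-2 was at 2.01 to 4.69 FPKM against 0.95, a difference of 1.83 ± 0.51 that just missed the threshold (adjusted p = 0.052) and passed with DESeq2 (0.0184), with no filter on low counts (0.032), with limma on log2(FPKM + 1) (0.0351) and without the BPA library (0.000351). Nkx6-1 did not differ past the test (-0.08 ± 0.26, adjusted p = 0.965).

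At EB day 9, 4 of the 10 were lower and none higher, where 3.48% of all genes were lower. Pax6 was at 1.86 to 2.79 FPKM against 6.67 with DMSO (-1.62 ± 0.16, adjusted p = 3.36e-07) and Olig2 at 1.33 to 2.32 against 6.85 (-1.87 ± 0.27, 5.82e-05). Dbx1 was at 9.28 to 13.8 against 23.7 (-1.02 ± 0.18, 0.000619) and Pax3 at 3.45 to 5.61 against 9.78 (-1.27 ± 0.23, 0.000779). The DMSO library was above all 3 bisphenol libraries for 7 factors (27.4% of all genes tested) and below them for Nkx6-1 and Irx3 (33.1%). The median log2 difference of the 10 was -0.94, against 0.004 over all genes. Msx3 (-0.98 ± 0.31) missed the threshold narrowly (adjusted p = 0.051) and passed with DESeq2 (0.0391), with DESeq2's size factors in edgeR (0.0483), with no filter (0.0308) and without the BPA library (0.00807).

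At EB day 12, Dbx1 was at 40.5 to 53.3 FPKM with bisphenols against 110 (-1.26 ± 0.14, adjusted p = 1.10e-06), and Olig2 at 6.29 to 7.04 against 19.8 (-1.63 ± 0.23, 9.51e-06). Pax6 was at 6.25 to 7.41 against 14.4 (-1.13 ± 0.13, 6.66e-07) and Irx3 at 36.3 to 41.6 against 54.7 (-0.54 ± 0.12, 0.00202). These 4 were lower where 8.79% of all genes were. The DMSO library was above the bisphenol libraries for 9 of the 10 factors, where it was for 35.1% of all genes tested. It was below them for Nkx6-1 alone (35.1 to 45.3 FPKM against 26.6, 0.60 ± 0.23, adjusted p = 0.0683), where it was for 32.6% of all genes. Nkx6-1 passed the test without the BPA library (0.019) or without the BPS library (0.0374), and Pax3 (0.0402) and Nkx2-2 (-0.69, 0.0223) without the BPA library.

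At EB day 20 the difference remained for Pax6 (5.08 to 6.21 FPKM against 9.34, -0.77 ± 0.14, adjusted p = 0.000342) and Irx3 (8.31 to 10.4 against 13.6, -0.57 ± 0.15, 0.00865), where 10.5% of all genes were lower. Nkx6-1 was higher (7.28 to 8.54 FPKM against 3.54, 1.07 ± 0.35, adjusted p = 0.031), where 9.14% of all genes were, and missed the threshold without the BPF library (0.0645). Dbx1 (-0.05 ± 0.27) and Olig2 (-0.27 ± 0.25), which had been lower before, were no longer past the test (adjusted p = 0.918 and 0.489). Nkx2-2 (-0.53, not called) passed without the BPA library (-0.81, adjusted p = 0.00774).

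**Figure D4:**
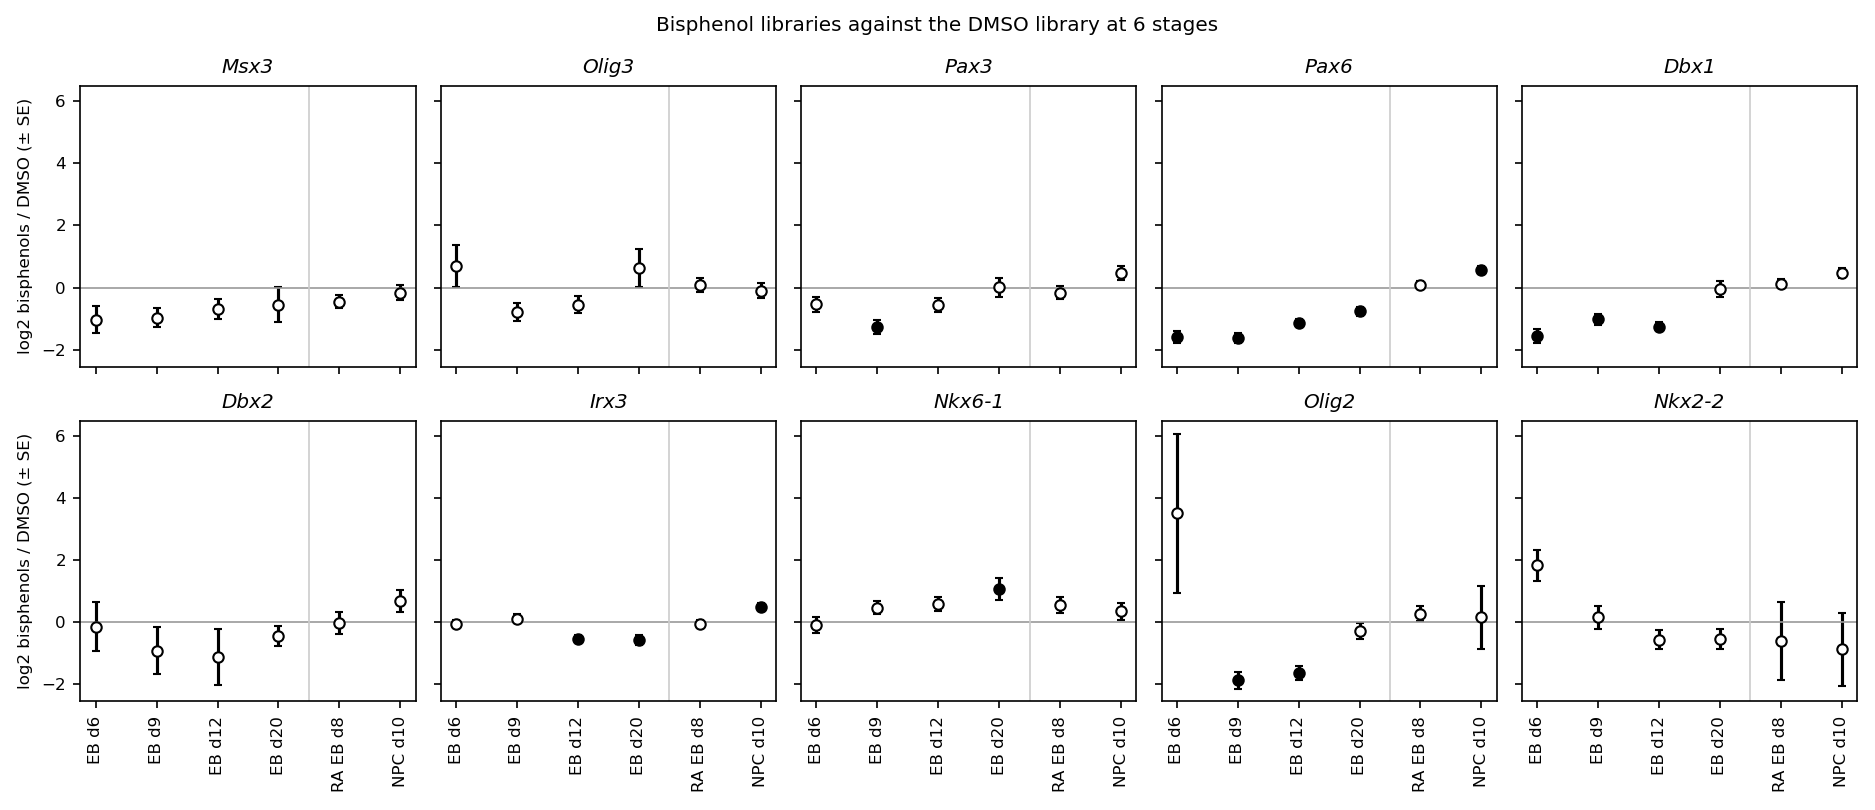
Log2 difference of the 3 bisphenol libraries from the DMSO library (vertical axis, ± SE) at 6 stages for each factor; filled points passed an adjusted p of 0.05, and the grey line parts the global from the neural branch. Pax6 is below 0 at the 4 global stages and at 0.56 in NPCs, and Nkx6-1 lies above 0 from EB day 9 on.

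In the neural branch no factor was called lower with bisphenols. In RA EBs the DMSO library was above the bisphenol libraries for 3 factors (37.5% of all genes tested). Msx3 was 1 of them, at 45.1 FPKM with DMSO against 29.6 to 34.2. The DMSO library was below the bisphenol libraries for Nkx6-1 alone (10.9 FPKM against 12.7 to 17.1), as for 23.3% of all genes. Pax6 in RA EBs was at 47.9 to 52.1 FPKM with bisphenols against 49.2 with DMSO (0.08 ± 0.12, adjusted p = 0.804), and Dbx1 at 113 to 132 against 116 (0.13 ± 0.15, 0.745). In NPCs Pax6 was at 18.4 to 19.6 FPKM against 12.8 (0.56 ± 0.13, adjusted p = 0.0167) and Irx3 at 31.7 to 32.6 against 22.9 (0.50 ± 0.13, 0.0442), where 0.313% of all genes were higher. Both missed the threshold without the BPF library (Pax6 0.179, Irx3 0.152). Irx3 also missed it without the BPS library (0.102), with DESeq2, with its size factors and with no filter (0.0515 each) and with limma (0.0646).

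The difference between the branches was tested as an interaction over the 24 libraries from EB day 6 on. It passed for Pax6 (log2 1.53 ± 0.18, adjusted p = 3.63e-05), Dbx1 (1.33 ± 0.22, 0.000906) and Olig2 (1.53 ± 0.43, 0.0295), each less low or higher with bisphenols in the neural branch, where 3.99% of 15084 genes differed in this direction. Olig2 missed the threshold without the BPF libraries (0.161), without the BPS libraries (0.126) and with limma (0.0986). For Nkx6-1 the branches did not differ past the test (-0.02 ± 0.26, 0.978), nor for Pax3 (0.78 ± 0.28, 0.0806).

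Markers of neural and other cells also differed between the libraries of the global branch. At EB day 6 the 12 neural progenitor markers summed to 571 FPKM with DMSO and to between 482 and 540 with bisphenols, 2 being lower and 2 higher. At EB day 9 they summed to 1222 FPKM with DMSO and to between 914 and 977 with bisphenols, and 6 were lower and 1 higher. At EB day 12 the sums were 2141 against 1695 to 1746, with 9 of 12 lower and none higher. At day 20 they were 1052 against 1164 to 1253, with 2 higher and 1 lower and a median log2 difference of -0.13. Of the 12 neuron markers 8, 6 and 5 were lower at EB days 9, 12 and 20 and none higher. Of the 9 somite genes tested 3, 5 and 3 were higher on these days, and 1, 1 and 0 lower. Of all 15632 genes tested, 627, 1577 and 1428 were higher on these days, and 544, 1374 and 1636 lower. In RA EBs the DMSO sum of the neural progenitor markers, 1091, lay within the bisphenol range of 1059 to 1113. Msx3, Olig3, Dbx2, Nkx6-1 and Nkx2-2 were called lower with bisphenols at none of the 8 stages, and the other factors at 1 or more. This split rests on the threshold, which Msx3 missed narrowly at EB day 9. For Msx3 the DMSO library was above all 3 bisphenol libraries at EB days 6, 9, 12 and 20 and in RA EBs. The part of the amount of neural or somite tissue in the differences of the factors was not tested.

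Genes of hedgehog and dorsal signalling differed as well, in lists that mix genes raising and genes lowering a signal. Shh was higher with bisphenols at EB day 6 (2.12 ± 0.21, adjusted p = 1.66e-06), day 9 (0.93 ± 0.17), day 12 (1.54 ± 0.19) and day 20 (1.49 ± 0.30). Gli1 (1.37 ± 0.17), Hhip (1.60 ± 0.33) and the floor plate factor Foxa2 (1.76 ± 0.19) were higher at day 6. Of the 14 hedgehog genes 5 were higher and 4 lower at day 6, 3 and 5 at day 12, and none passed the test in RA EBs or NPCs. Bmp4 was higher at day 12 (2.73 ± 0.30) and day 20 (2.41 ± 0.29) with 4 of the 18 BMP and Wnt genes higher and 4 lower at day 12. Rarb, a retinoic acid receptor and target, was higher at day 9 (2.21 ± 0.28) and day 12 (2.63 ± 0.28), where 6 of the 12 retinoid genes were higher and 2 lower. Of the 24 further domain factors, 8 were lower and 4 higher at day 12. The lower ones included Pax7 (-1.09 ± 0.36), a paired-box relative of Pax3, and the dorsal factor Zic1 (-1.08 ± 0.15). At day 20, 5 of the 24 were higher and 0 lower. Of all 15632 genes tested, 242 were higher and 157 lower at day 6, 1577 and 1374 at day 12, and 1428 and 1636 at day 20. The part of these signals in the values of the 10 factors was not tested.

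Each bisphenol was also compared with DMSO over all 8 stages, 8 libraries against 8, with the same DMSO libraries each time. Msx3 was the only factor called, lower with BPF (-0.68 ± 0.16, adjusted p = 0.0441) and BPS (-0.71 ± 0.17, 0.0345), where 0.569% and 0.525% of all genes were lower. With BPF it missed the threshold without any 1 of EB days 6, 9, 12 or 20 or RA EBs (adjusted p 0.0886 to 0.194), and with BPS without any 1 of EB days 9, 12 or 20 or RA EBs (0.0686 to 0.244). With BPA none passed in edgeR or DESeq2, where 0.166% of all genes did in edgeR. For BPA, 5 of the 10 and 10.3% of all genes had an unadjusted p under 0.05, and Msx3 differed by -0.37 ± 0.16. With limma on log2(FPKM + 1), none of the 10 passed for any of the 3.

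Over the 16 libraries of EB days 6 to 20 alone, a comparison chosen after the data had been seen, more factors passed. The same DMSO libraries stand behind BPA, BPF and BPS here, so their results are not independent of one another. At some of these stages the DMSO library stood apart for Pax6, Dbx1 and Olig2, as listed below. Pax6 was lower with BPA (-1.16 ± 0.16, adjusted p = 0.00208), BPF (-1.26 ± 0.16, 0.000385) and BPS (-1.37 ± 0.16, 0.000236), and Dbx1 was lower with each (-0.91 ± 0.19, -1.15 ± 0.20 and -1.06 ± 0.20). Olig2 was lower with BPF (-1.32 ± 0.31) and BPS (-1.36 ± 0.31), as was Msx3 (-0.99 ± 0.28 and -0.92 ± 0.28), and Pax3 with BPF (-0.82 ± 0.21). Nkx6-1 was higher with BPA (0.66 ± 0.16, 0.0356). Lower genes made up 1.51%, 5.94% and 6.82% of the 14872 tested for BPA, BPF and BPS, and higher ones 2.31% for BPA.

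The 3 bisphenols differ in the bridge between their phenol rings, which is a carbon with methyl groups in BPA, a methylene in BPF and a sulfonyl in BPS. They were compared with one another at the same dose over the same 8 stages, 3 pairs for 10 factors. None of the 30 differences had an unadjusted p under 0.05 in edgeR's test. Of all genes, 2.15% (BPA and BPF), 6.88% (BPA and BPS) and 1.70% (BPF and BPS) did. At an adjusted p under 0.05, 0.0%, 0.0064% and 0.0% of all genes passed in the same order. The smallest p of the 30 differences, adjusted over all genes, was 0.725. The largest difference was a log2 of 0.34, between BPA and BPS, and all 95% intervals lay between -0.81 and 0.72. Differences of up to that size between the compounds are not excluded by these libraries.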

How the data were processed

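RNA-seq values of 32 libraries were used. The authors deposited expected counts and FPKM per gene; per the submitters' processing notes Bowtie2, HISAT, RSEM and mm10 were used, with versions and roles not given in the sources used here. Genes that a library did not list were set to 0. Expected counts were rounded and tested with edgeR 4.0.16 (R 4.3.3, quasi-likelihood, TMM factors 0.923 to 1.143, genes at 1 CPM or more in at least 4 libraries, 15632 genes), adjusted by Benjamini-Hochberg over all of them. Stage comparisons were called at an adjusted p under 0.05 and an absolute log2 change of 1 or more, treatment comparisons at the adjusted p alone. Standard errors are the log2 change over the square root of F. Alternatives were DESeq2 1.42.0, its size factors, no filter, limma 3.58.1 on log2(FPKM + 1) and, for stages, log2(FPKM + 0.1), the treatment as block, and leaving out libraries. The scripts were tested on simulated data. All 10 factors are named; of each context list, up to 4 called genes with the largest change, some of which are not reported here; of likeness, the nearest genes. The factors and lists were chosen with earlier results of these data known. Treatments pair libraries of different stages as a shared label; whether they share a culture is not given. Protein sequences were not analysed here.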

Additional observations from a re-analysis of the deposited data

Results flagged for a closer look

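Among 77 groups of 4 libraries, the highest or lowest library stood apart from the other 3 in 10. By chance about 1 in 20 groups would do so, a rate that need not hold for values near 0. The groups also share libraries, so the 10 were not tested against that rate. In 6 of the 10 this was the DMSO library. It was highest for Pax6 at EB day 6 (4.09 FPKM) and day 12 (14.41), for Dbx1 at EB day 6 (8.98) and for Olig2 at EB day 12 (19.84), and lowest for Irx3 in NPCs (22.85). In 5 of the 10 the highest value was under 1 FPKM: Dbx1 in ESCs with DMSO (0.04), Olig2 in ESCs with BPS (0.04), Pax3 at EB day 4 with BPS (0.06), Dbx2 at EB day 4 with BPS (0.47) and Olig3 at EB day 6 with BPS (0.44).

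The difference of the bisphenol libraries from DMSO was not the same in the neural and the global branch, by an interaction test, for Dbx1 (log2 1.33), Pax6 (1.526) and Olig2 (1.529). For Olig2, NPC libraries held 2 to 6 counts each and EB day 6 libraries 0 to 2.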

How the results depend on the processing

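Of 2310 values of the 10 factors under the alternatives, 92 had another sign than the value reported, none of a factor with an unadjusted p under 0.05 and none called either way. From ESCs to EB day 4, 2 factors were called, and 0 with limma at either pseudocount and 0 to 2 when a treatment was left out. From EB day 4 to day 6, 8 were called and 5 with limma on log2(FPKM + 1). Over the 8 stages, 0, 1 and 1 factors were called for BPA, BPF and BPS, with 0 to 1, 0 to 4 and 0 to 3 when a stage was left out. With limma 0 were called for BPF and 0 for BPS. Over the global EBs alone, chosen after the data were seen, there were 3, 5 and 4. At EB day 12, 4 were called with bisphenols, and 4 to 7 when a bisphenol library was left out. In NPCs 2 were called, 1 each with DESeq2, its size factors, no filter and limma, and 0 to 3 when a library was left out. With CPM the ventral share was 24.32% at EB day 6, 41.03% at day 20 and 6.615% in NPCs. The causes were not tested. With the treatment as replicate block, all 66 fold changes kept their direction and side of the threshold, and 2 factors were called from ESCs to EB day 4. Over all genes, limma on log2(FPKM + 1) called 2371 instead of 4356 genes from ESCs to EB day 4 and 1275 instead of 2957 for RA EBs against EBs. The interaction called 1326 genes, 235 without the BPF libraries and 441 without the BPS libraries. Levels under 1 FPKM rest on few reads.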
